A study of Mus musculus with 8 samples.

Results

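The Notch pathway was examined through 10 of its genes, the receptors Notch1, Notch2 and Notch3, the ligands Jag1, Jag2 and Dll1, the DNA-binding partner Rbpj and the target genes Hes1, Hey1 and Heyl. Members were all non-control probes of the array that carry one of these gene names, which gave 15 of the 56605 probes, for 10 of the 37074 gene names on the array. RNA came from C2C12, an immortalized mouse myoblast line, kept proliferating and at passage 10 in every culture. In 4 silenced cultures the cells received the transfection reagent Lipofectamine and antisense LNA GapmeRs against Pvt1, a long non-coding RNA. In 4 control cultures they received the same reagent and negative control GapmeRs. GapmeRs are short oligonucleotides that pair with an RNA and direct its cleavage in the nucleus. The study is of 1 cell line, so that the 8 cultures vary as cultures and not as animals. Each culture was read on 1 single-colour array and all 8 arrays lay on 1 slide.

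Notch receptors are membrane proteins that are activated by ligands on a neighbouring cell. The bound receptor is cut by ADAM proteases and then by gamma-secretase, and the freed intracellular part enters the nucleus, where it joins Rbpj and Mastermind proteins to switch on genes such as Hes1, Hey1 and Heyl. Rbpj without the receptor fragment recruits corepressors to the same genes. In muscle, Notch signalling is known for keeping satellite cells and myoblasts undifferentiated, and the HES and HEY proteins are transcriptional repressors.

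The sequences that bear on the results are shown here, 5′ to 3′. The GapmeRs are given because they define the silenced group, though the sources used here do not say which of them each array's culture received.
Pvt1_1: accgtagtagagttaa
Pvt1_3: agtcaacgcttcacat
Only 2 member probes, those of Hes1 and the 3′ probe of Rbpj, hold AATAAA or ATTAAA, the polyadenylation signal found near the 3′ end of most messages. It was searched on the probe strand alone, and 4265 of the 28649 tested probes hold it. The 30 probe bases around it are given with the signal in capitals.
Hes1: ttgagaaaatatAATAAAagagtgaaggct
Rbpj, 3′ probe: tcttttgtcagctgcttttATTAAAagtcc
The 5′ probe of Rbpj and the Notch1 probe, which hold no such signal, are given whole for contrast.
Rbpj, 5′ probe: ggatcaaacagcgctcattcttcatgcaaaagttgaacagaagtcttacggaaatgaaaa
Notch1: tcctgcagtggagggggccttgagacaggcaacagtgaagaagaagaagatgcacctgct

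The silencing itself was checked on the brightest Pvt1 probe (chr15:62081020-62081079, build mm9). Its log2 signal was 9.86 ± 0.30 (SD, n = 4) in control and 7.0 ± 0.63 (SD, n = 4) in silenced cells, a change of -2.86 (SE 0.32, limma adjusted p 0.000682) that left 13.8% of the control level. Spots that were positive and significant made up 58.8% to 62.5% of spots on the control arrays, 59.8% to 61.0% on silenced replicates 1 to 3 and 51.6% on silenced replicate 4. Control replicate 3 correlated with its group at a mean of 0.9635, and the other 7 arrays with theirs at 0.9777 to 0.9835. Values below are given with and without silenced replicate 4 and control replicate 3 where these decide a result. Of the myoblast markers Myod1, Des, Cdh15, Cdh2 and Pax7 cleared background on all 8 arrays, that is, were marked as well above it by the scanning software, while Myf5 did so on none.

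Spots that were not significantly positive were masked, that is, set to missing. Of the 15 member probes, 11 had at least 3 values in each group and were tested, with at least 1 probe for each of the 10 genes. Hes1 was the member called, and it was higher in silenced cells. Over all 28649 probes, 4.79% were called higher and 18.4% lower at an adjusted p under 0.05 (limma, Benjamini-Hochberg over all probes), against 1 and 0 of the 11 member probes. At an unadjusted p under 0.05 the counts were also 1 higher and 0 lower with limma, and the same with the methods' t-test, run here with ordinary p-values. The 11 changes had a median of 0.19 on the log2 scale, with 7 above and 4 below 0, while the median of all tested probes was -0.19. That last value moved with the normalization, to 0.01 without masking of dim spots, 0.02 with cyclic loess and 0.16 when arrays were shifted to a common 75th percentile. Lower probes were 79.3% of all those called, against 49.0%, 49.3% and 38.2% under these 3 settings. Fewer cells of a kind and less RNA per cell cannot be told apart in such bulk RNA.

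**Figure D1:**
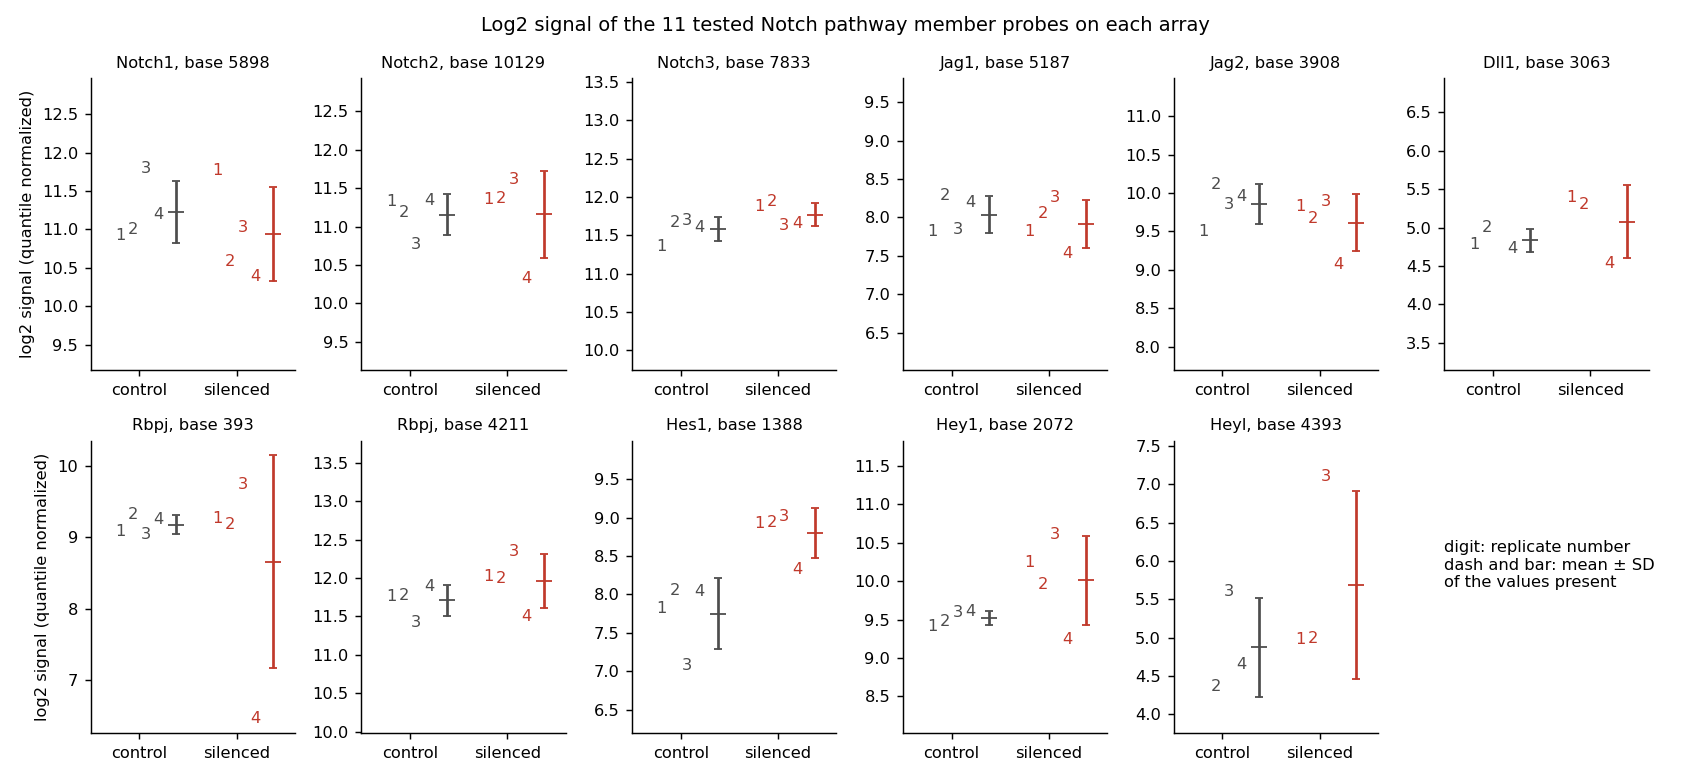
Each panel plots the quantile-normalized log2 signal (y axis) of 1 tested member probe in control and silenced cells (x axis), with digits for the replicate numbers and a dash with a bar for the mean ± SD of the values present. Hes1 is the probe whose silenced values, 8.32 to 9.02, all lie above its control values, 7.07 to 8.06.

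Notch1, Notch2 and Notch3 are the receptors, and none of their probes was called. The Notch1 probe (chr2:26319440-26319499, minus strand) read 10.92, 11.00, 11.80 and 11.19 log2 on control replicates 1 to 4 and 11.76, 10.59, 11.03 and 10.39 on silenced replicates 1 to 4. The highest control and the highest silenced array were nearly level, and the groups overlapped. Its change, silenced minus control, was -0.29 (SE 0.33, limma adjusted p 0.578). The sign differed between the rows of the slide, with 0.52 in the upper row, which held control replicates 1 to 3 and silenced replicate 1, and -0.52 in the lower row, which held the other 4 arrays.

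The Notch2 probe (chr3:97953914-97953973, plus strand) read 11.33, 11.18, 10.77 and 11.34 in control and 11.35, 11.36, 11.61 and 10.33 in silenced cells. The means differed by 0.01 (SE 0.30, limma adjusted p 0.990). Silenced replicate 4 held the lowest value of all 8, and without it the change was 0.28, which was not called. Notch3, a receptor also abundant in the mural cells of vessels, had a probe (chr17:32257888-32257947, minus strand) at 11.35, 11.67, 11.70 and 11.60 in control and 11.87, 11.93, 11.63 and 11.65 in silenced cells. These 8 values spanned the narrowest range of any tested member probe, and the change was 0.19 (SE 0.19, limma adjusted p 0.504). With a shift to the 75th percentile it was 0.57 and was called (limma adjusted p 0.0195), a setting under which the median of all probes was 0.16.

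The second probes of Notch1 (chr2:26354049-26354108) and Notch2 (chr3:97904420-97904479) were not tested, since they gave a value on 2 arrays and on 1 array. The Notch1 one cleared background on 1 silenced array, where its spot was marked as an outlier and left out, and the Notch2 one on none.

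Jag1, Jag2 and Dll1 are ligands, and the signal of none of them was called. The Jag1 probe (chr2:136907433-136907492, minus strand) read 7.82, 8.29, 7.84 and 8.20 in control and 7.82, 8.05, 8.26 and 7.53 in silenced cells. The change of -0.12 (SE 0.23, limma adjusted p 0.740) was smaller than the SD of either group, and its sign turned under several normalizations. The Jag2 probe (chr12:114146887-114146946, minus strand) read 9.50, 10.11, 9.86 and 9.96 in control and 9.83, 9.67, 9.88 and 9.07 in silenced cells. Its change was -0.24 (SE 0.24, limma adjusted p 0.515), which came to -0.05 relative to the median of all probes. Silenced replicate 4 was the lowest array for both ligands, and without it the changes were 0.00422 for Jag1 and -0.06 for Jag2.

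Dll1, a ligand of the Delta family, was at the limit of detection. Its probe (chr17:15504623-15504682, minus strand) did not rise well above background on any of the 8 arrays, and it gave 4.78, 5.01 and 4.72 on control replicates 1, 2 and 4 and 5.40, 5.31 and 4.53 on silenced replicates 1, 2 and 4. The computed change was 0.24 (SE 0.30, limma adjusted p 0.612), with 2 silenced values above all 3 control values and 1 below them. It was called under cyclic loess (0.61), with the authors' series table (0.70) and with a shift to the 75th percentile (0.75), and it was -0.01 with normexp. Its spot was positive and significant on 6 arrays but well above background on none, so no fold is given. The second Dll1 probe (chr17:15513726-15513785) gave a value on 1 control array alone and was not tested.

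Rbpj, the DNA-binding protein through which the receptors act, was read by 2 probes that lie 20072 bases apart in the genome. The 3′ probe (chr5:54047306-54047365, base 4211 of the transcript) read 11.75, 11.77, 11.42 and 11.89 in control and 12.02, 11.99, 12.35 and 11.50 in silenced cells. In 3 of 4 silenced cultures it was above every control, and the change was 0.25 (SE 0.23, limma adjusted p 0.469). The 5′ probe (chr5:54027234-54027293, base 393) read 9.09, 9.32, 9.04 and 9.25 in control and 9.26, 9.18, 9.74 and 6.46 in silenced cells. Its change of -0.52 (SE 0.61, limma adjusted p 0.588) rested on silenced replicate 4, without which it was 0.22 and not called either.

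Within each array the 5′ minus 3′ difference of Rbpj in log2 signal was -2.67, -2.45, -2.37 and -2.64 in control and -2.76, -2.81, -2.60 and -5.04 in silenced cells. The first 3 silenced arrays were within or just below the control range, while replicate 4 was far below it. The difference changed by -0.77 (SE 0.50, limma adjusted p 0.254 over 6236 genes with such a pair, exact two-sided permutation p 0.0857), and by -0.19 without silenced replicate 4. Over these genes the difference was called lower in 31.5% and higher in 7.22%, with a median change of -0.43, so that 5′ probes in general fell against 3′ probes in silenced cells. Rbpj was among the genes not called.

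**Figure D2:**
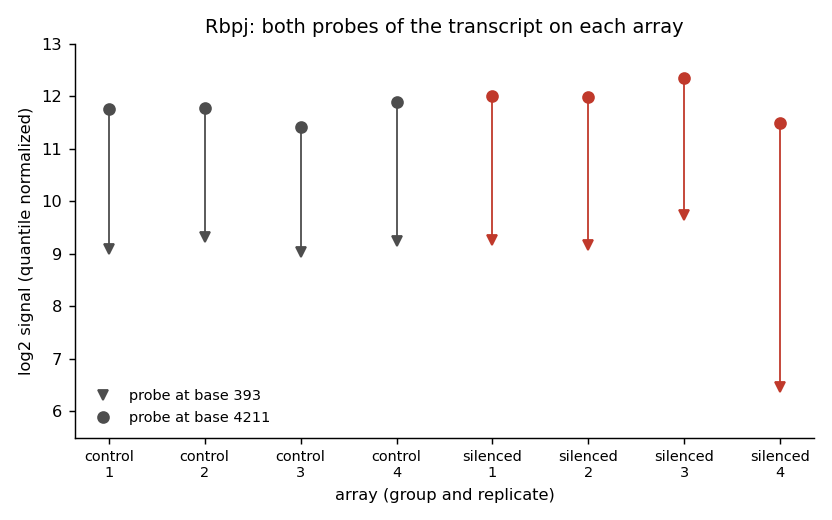
The quantile-normalized log2 signal (y axis) of the 5′ probe (triangles, base 393) and the 3′ probe (circles, base 4211) of Rbpj is plotted on each of the 8 arrays (x axis), with a line joining the pair. The 5′ minus 3′ difference is -2.81 to -2.37 on 7 arrays and -5.04 on silenced replicate 4.

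Hes1 encodes a basic helix-loop-helix repressor that is a direct target of Notch in many cells, and it showed the largest change among the tested member probes. Its probe (chr16:30067820-30067879, plus strand, base 1388 of the transcript) was well above background on all 8 arrays. It read 7.82, 8.06, 7.07 and 8.04 in control and 8.92, 8.94, 9.02 and 8.32 in silenced cells. Every silenced value lay above every control value, which was so, in this direction, for 4.70% of all tested probes. The means were 7.75 ± 0.46 (SD, n = 4) and 8.80 ± 0.32 (SD, n = 4), a change of 1.05 on the log2 scale (SE 0.28, limma adjusted p 0.0228), or 2.08-fold. An exact permutation test, two-sided, gave a p of 0.0286, which is the lowest that 4 against 4 arrays allow. The change was 1.27 in the upper row of the slide and 0.73 in the lower.

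The direction of Hes1 was the same under all 18 alternatives, with changes of 0.79 to 1.42, and the call held in 12 of them. It was lost with the slide row as a block (1.00, limma adjusted p 0.0984, where 1.86% of all probes were called higher), under the methods' t-test with Benjamini-Hochberg adjustment (adjusted p 0.0703), with the replicate number as a block (limma adjusted p 0.0514) and without silenced replicate 1, 2 or 3 (limma adjusted p 0.0556 to 0.0618). Without control replicate 3 and silenced replicate 4 together the change was 0.99 (limma adjusted p 0.00281). Among tested probes that hold a polyadenylation signal, as the Hes1 probe does, 10.2% were called higher and 6.64% lower, and their median change was 0.17.

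Hey1, a related repressor, moved less evenly. Its probe (chr3:8663432-8663491, minus strand) read 9.41, 9.48, 9.59 and 9.60 in control and 10.24, 9.96, 10.61 and 9.24 in silenced cells. The first 3 silenced arrays were above all controls and replicate 4 was below all of them. The change was 0.49 (SE 0.28, limma adjusted p 0.245). Without silenced replicate 4 it was 0.75 and was called (limma adjusted p 0.0222), as it was under cyclic loess (0.73), with the authors' series table (0.76), with a shift to the 75th percentile (0.78) and with no masking of dim spots (0.76, limma adjusted p 0.00911). In the values without masking, Hey1 on silenced replicate 4 was 9.98 against 9.28 to 9.48 in control, and Hes1 on that array was 9.17 against 6.89 to 7.89.

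Heyl was dim. Its main probe (chr4:122926975-122927034, plus strand) gave 4.36, 5.60 and 4.66 on control replicates 2, 3 and 4 and 4.98, 4.99 and 7.10 on silenced replicates 1, 2 and 3. It cleared background on 1 silenced array alone, replicate 3, which held the highest value. The computed change was 0.81 (SE 0.61, limma adjusted p 0.384) and the groups overlapped. It rested on silenced replicate 3, without which it was 0.11. The second Heyl probe (chr4:122917783-122917842) gave no value on any array and was not tested.

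**Figure D3:**
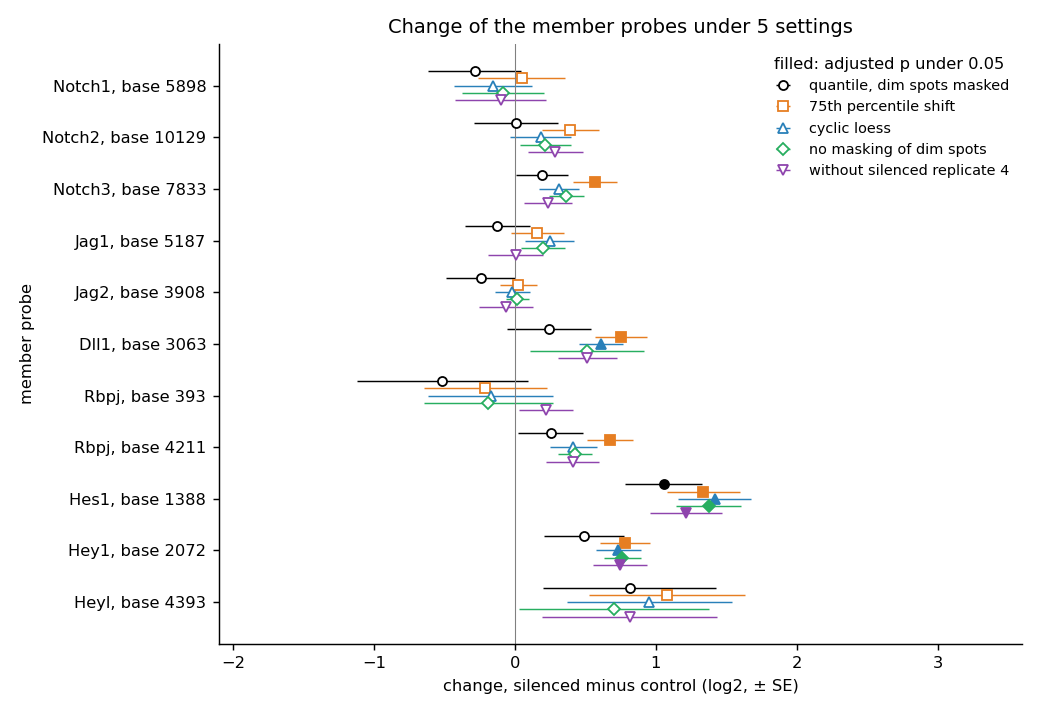
The change, silenced minus control (x axis, log2, bars ± SE), of the 11 tested member probes (y axis) is plotted under 5 settings of the processing, with filled symbols for an adjusted p under 0.05. Hes1 is filled under all 5, at 1.05 to 1.42, and Hey1 under 4, while Notch3 and the 3′ probe of Rbpj are filled only with the shift to the 75th percentile.

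The other genes of the pathway were taken as 60 genes in 9 lists by role, each by its brightest tested probe. All 60 were on the array and 52 were tested, of which 3 were called higher, 9 lower and 40 were not called. Over all gene symbols 5.99% were called higher and 14.0% lower. The median change was 0.08 in the pathway genes and -0.09 over all symbols. Of 44 dimmer probes of these genes that were also tested, 8 were called lower and 2 higher, the latter for Maml3 and Psenen. Over all tested probes the shares were 18.4% lower and 4.79% higher.

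Among the brightest probes the steepest fall was in Dtx3 (chr10:126627701-126627760), a ubiquitin ligase of the deltex family. It read 11.87, 12.14, 11.85 and 12.10 in control and 9.28, 9.51, 8.80 and 9.25 in silenced cells, so that the groups stood far apart. The change was -2.78 (SE 0.21, limma adjusted p 0.000175), which left 14.6% of the control level. None of the other 7 tested genes of receptor inhibition and turnover was called.

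Among the 4 tested genes that add sugars to the receptor, 2 fell and 1 rose. Lfng (chr5:141091224-141091283), the Fringe enzyme that changes which ligands a receptor answers to, read 8.99, 9.07, 9.16 and 9.12 in control and 7.50, 7.97, 7.12 and 7.28 in silenced cells. All silenced values were lower, and the change was -1.62 (SE 0.22, limma adjusted p 0.00147). Rfng (chr11:120642060-120642119), another Fringe enzyme, went the other way, from 11.20, 11.37, 11.68 and 11.48 to 12.24, 12.29, 12.94 and 11.77. Its groups did not overlap either and the change was 0.88 (SE 0.26, limma adjusted p 0.0388). Poglut1, which adds glucose to the receptor, fell by 0.75 (limma adjusted p 0.0462), while a dimmer Poglut1 probe changed by 0.37 and was not called. Pofut1, which adds fucose, was not called by its brightest probe (0.68), while a dimmer probe that cleared background on all 4 control arrays and no silenced array had a computed change of -1.496 (limma adjusted p 0.0143).

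In the nucleus, 3 of the 7 tested coactivator genes and 1 of the 12 corepressor genes fell and none rose by their brightest probes. Crebbp (chr16:4084710-4084769), an acetyltransferase used by many transcription factors, read 11.59 to 12.02 in control and 10.69, 10.84, 10.52 and 10.15 in silenced cells, a change of -1.31 (SE 0.22, limma adjusted p 0.00324). Another of its probes, above background on all 8 arrays, changed by -2.13 (limma adjusted p 0.00106), and its remaining tested probe cleared background on 3 control arrays and no silenced array. The Mastermind genes Maml2 and Maml3, partners of the receptor fragment, changed by -1.19 and -1.13 (limma adjusted p 0.0313 and 0.0347). The Maml3 probe cleared background on 2 control arrays and no silenced array. Its bound on the fold of the means was 2.17, higher in control cells, with no allowance for sampling error. A dimmer Maml3 probe, which cleared background on no array, had a computed change of 0.95, and Maml1 changed by 0.16, which was not called.

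Ncor1 (chr11:62131484-62132878), a corepressor of Rbpj and of nuclear receptors, read 12.27, 12.45, 12.73 and 12.30 in control and 11.23, 11.39, 10.77 and 10.97 in silenced cells. The groups did not overlap and the change was -1.35 (SE 0.21, limma adjusted p 0.00274). Its probes were not of one size in their change, since 1 further probe fell by 0.95 (limma adjusted p 0.0339) and 3 others, at -0.89, -0.39 and -0.18, were not called. The corepressor genes Spen and Hdac1 were not called by their brightest probes, with changes of -0.03 and 0.27, but dimmer probes of both cleared background on all 8 arrays and were called, at -2.50 for Spen (limma adjusted p 0.000538) and -1.26 for Hdac1 (limma adjusted p 0.00387). A further Hdac1 probe, also above background on all 8 arrays, changed by -0.23 and was not called.

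Receptor cleavage was represented by 10 tested genes, of which 2 fell and none rose by their brightest probes. Ncstn (chr1:173996373-173996432), which binds the substrate of gamma-secretase, read 11.48, 11.77, 10.63 and 11.75 in control and 10.30, 10.50, 10.34 and 10.21 in silenced cells. Control replicate 3 was close to the silenced values without reaching them, and the change was -1.07 (SE 0.27, limma adjusted p 0.0202). A dimmer Ncstn probe, which cleared background on 3 control arrays and no silenced array, had a computed change of -2.91 (limma adjusted p 0.000928). A dimmer Psenen probe, above background on every array, was called higher at 0.63 (limma adjusted p 0.0410). The brightest Psenen probe at 0.04 and a further one at 0.47 were not called. Of the 6 genes listed under ligand endocytosis, 2 rose and none fell, both of them named for the Neuralized family. Neurl1a (chr19:47333865-47333924) read 11.72, 11.75, 12.06 and 11.95 in control and 12.87, 12.82, 13.14 and 12.30 in silenced cells, a change of 0.91 (SE 0.23, limma adjusted p 0.0179). Neurl2 (chr2:164656260-164656319) read 9.30, 9.41, 10.06 and 9.73 in control and 10.73, 10.60, 10.83 and 9.83 in silenced cells. Here silenced replicate 4 fell within the control range, and the change was 0.87 (SE 0.28, limma adjusted p 0.0480).

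Notch4, the 2 tested genes among further ligands and the 2 among further HES and HEY genes were not called by their brightest probes, with changes of -0.48 to 0.53. The 0.53 was a computed change of Notch4, whose probe cleared background on no array. Of these genes, Hes6 had a dimmer probe with a computed change of -1.66 (limma adjusted p 0.00475), which cleared background on all 4 control arrays and no silenced array. With the slide row as a block, 4 of the 52 tested pathway genes were called lower, Dtx3, Lfng, Ncor1 and Crebbp, and none higher, against 8.98% and 1.86% of all probes. Those shares are over all probes, while the genes were counted by their brightest probes. The count of higher genes was 20 with a shift to the 75th percentile and 12 with cyclic loess. It was 7 without silenced replicate 4 or without control replicate 3, and 0 or 1 without any other array. The count of lower genes was 4 or 5 without control replicate 1, 2 or 4 or silenced replicate 1.

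**Figure D4:**
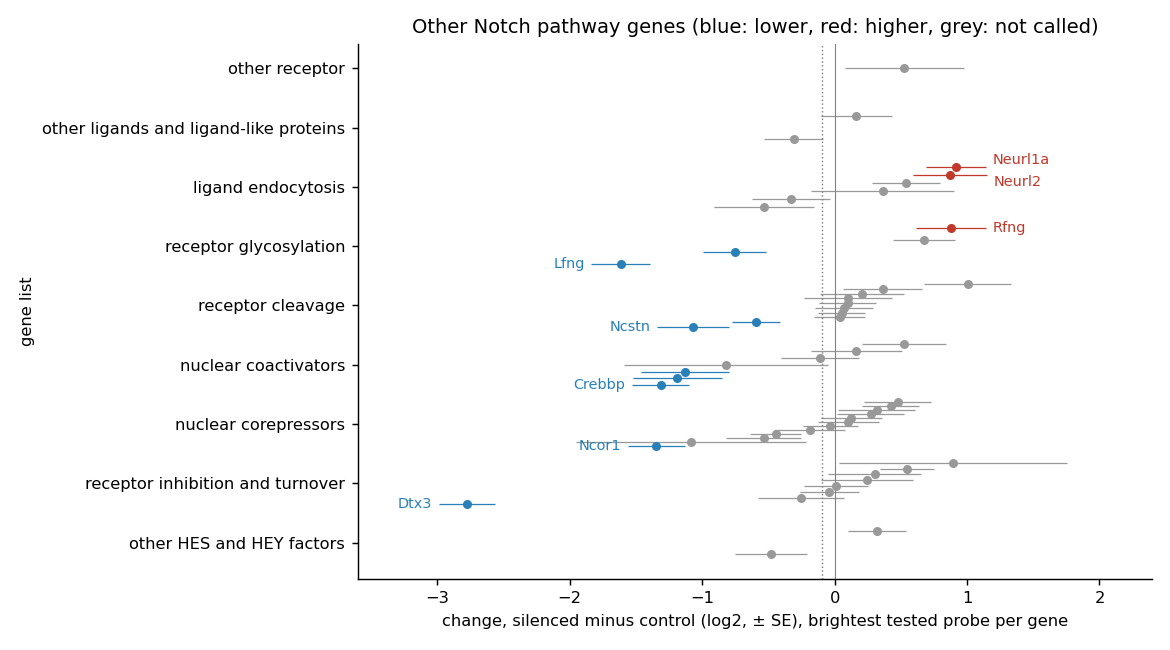
The change, silenced minus control (x axis, log2, bars ± SE), is plotted for the brightest tested probe of 52 other Notch pathway genes, by list (y axis), with a solid line at 0 and a dotted line at -0.09, the median over all symbols. Blue marks the 9 genes called lower, with Dtx3 at -2.78 farthest to the left, red the 3 called higher and grey the 40 not called.

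Markers of several cell types moved with the groups. The summed signal of 7 myoblast markers was 60311 to 62441 on control and 25844 to 39243 on silenced arrays, in linear units without masking, and Myod1, the myogenic factor, fell by 1.95, Des fell by 1.35 and Cdh15 fell by 0.86 on the log2 scale. The other 4 were not called by their brightest probes, with changes of -0.45 for Cdh2, 0.02 for Pax7, 0.13 for Myog and a computed 0.94 for Myf5, which cleared background on no array. A dimmer Cdh2 probe, which cleared background on 4 control and 2 silenced arrays, was called lower at -2.41 (limma adjusted p 0.00303). Without masking, Pax7 changed by 0.36 (limma adjusted p 0.0176) and Myf5 by 1.16 (limma adjusted p 0.0170). With the slide row as a block Cdh15 was no longer called (-0.85, limma adjusted p 0.0748), while the computed change of Myf5 was (1.30, limma adjusted p 0.0301). Of the 13 liver markers, 1 was well above background on all control arrays and 5 on all silenced arrays, and their sum was 999 to 1849 and 4145 to 5437. The defining liver markers Alb and Mup1 were well above background on all silenced arrays and on none of the controls. Apoa1, Apoc3, Fga and Cps1 cleared background on no array of either group. Of the 5 liver markers tested, Fgg and Cyp2e1, each well above background on 3 silenced arrays, were called higher. The other 3 were not called, among them Apoa2 at -0.15, above background on all 8 arrays. No endothelial marker of 6 was well above background on any array. Of the 5 macrophage markers, whose sums were 5780 to 6543 and 6697 to 9585, Cd68 rose by 1.84 while Csf1r fell by 1.12 and Itgam fell by 1.08. Ptprc at 1.26 (limma adjusted p 0.0588), above background on all 8 arrays, and Lyz2 at a computed 0.37, above it on none, were not called. Csf1r was not called with the slide row as a block (-0.99, limma adjusted p 0.112), and its other probe, above background on all 8 arrays, changed by 0.66 and was not called. Of the 5 smooth muscle and pericyte markers, with sums of 57946 to 93897 and 18442 to 30045, Pdgfrb fell by 1.80 and Acta2 fell by 1.70, while Rgs5 was at background on every array. Acta2 was by far the brightest of them, at 15.65 to 16.41 log2 in control without masking, so the sums were mostly its signal. A dimmer Acta2 probe, above background on all 8 arrays, was called lower at -2.07 (limma adjusted p 0.000675), and another at -0.82 was not called (limma adjusted p 0.0820). Cspg4 at -0.63 and Myh11 at 0.79 were not called by their brightest probes, but a dimmer Cspg4 probe, which cleared background on 1 control and 3 silenced arrays, was called higher at 1.22 (limma adjusted p 0.0453). Myh11 cleared background on 2 silenced arrays and no control array, with a change of 1.13 without masking (limma adjusted p 0.0315). The part of these shifts in the values of Hes1 and the other pathway genes was not tested.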

How the data were processed

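Total RNA of 8 cultures (4 control, 4 silenced, labelled as biological replicates) was labelled with Cy3 and hybridised to Agilent mouse arrays. The authors deposited spot intensity on a linear scale, corrected for background by Feature Extraction (12.0.0.7 per the file headers, 10.7.3.1 in the submitters' processing notes), with other columns of flags for spots above background and outliers, and a series table of intensity values that they had normalized to a common median of 52.9. Log2 of the processed intensity was taken here, spots that were not positive and significant, outliers and controls were set to missing, arrays were quantile normalized and spots of a probe averaged, as in the study's methods except for the outliers. Probes with at least 3 values per group (28649) were fitted in limma 3.58.1 (R 4.3.3) by group alone, and p-values were adjusted by Benjamini-Hochberg over all of them at 0.05. Coordinates are those of the files (mm9), and exon or UTR positions were not analysed here.

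Where a probe cleared background on no array of a group, its fold is a bound, the other group's mean against the higher, per array, of its own value and the lowest value well above background. Such a bound takes the means as they stand and allows for no sampling error. Named were all member probes, Pvt1, the pathway genes called and well above background on all 8 arrays (up to 5 falls and 5 rises) and defining markers. Poglut1, Pofut1, Psenen, Spen, Hdac1, Hes6, Maml1, Maml2 and Maml3 were named after their values were seen, and 1 gene of the receptor cleavage list is counted but not reported here. Members and lists were chosen with earlier results of these data known. A simulation of all 28649 probes changed 200 of them. The fit found 84% of those given a change of 2 log2 and 10% of those given 1 log2. It made 99 calls there, against 5269 lower and 1373 higher in the data, so these shares do not carry over to the data. The number of arrays limits the precision. Alternatives were other normalizations and masks, the series table, blocks for replicate and slide row, the methods' t-test and leaving out arrays. The study's methods state that t-test for muscle fibres, with p-values from permutation and Bonferroni correction, while here it was run on these arrays with ordinary p-values and Benjamini-Hochberg adjustment. Leaving out control replicate 3 and silenced replicate 4 together was chosen after seeing the data. Figures were drawn with matplotlib 3.10.9.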

Additional observations from a re-analysis of the deposited data

Results flagged for a closer look

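Over the member probes and the Rbpj probe difference, 20 groups of 4 values were checked for an array far from the other 3, and 2 held one, where chance flags about 1 in 20. Both were silenced replicate 4, the array with the fewest spots above background. Its log2 signal for Hes1 was 8.32, while the other 3 silenced arrays held 8.92 to 9.02, and without masking of dim spots it was 9.17 against 8.86 to 8.91. Its 5′ minus 3′ difference for Rbpj was -5.04 against -2.81 to -2.60.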

How the results depend on the processing

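The probes called higher over the whole array, 1373 with all arrays and settings as reported, were 7075 with a shift to the 75th percentile, 5416 with cyclic loess, 4990 without masking of dim spots, 5009 with the authors' series table, 534 when the slide row was a block, 566 under the methods' t-test and 683 to 3563 when 1 array was left out, the highest without silenced replicate 4. Those called lower (5269) were 2572 when the row was a block, 2854 under the t-test and 2984 to 5732 with 1 array left out, with 3078 without control replicate 2 and 2984 without control replicate 4. Member probes called higher (1) were 5, 3, 2 and 3 under the first 4 of these settings, 0 with the row block and under the t-test, and 0 to 2 with 1 array left out, and none was called lower under any alternative. Other pathway genes called higher (3) were 20, 12, 12 and 13 under the first 4, 5 with normexp, 5 with spots well above background only, 0 with the slide row, 0 under the t-test and 0 to 7 with 1 array left out. Those called lower (9) were 4 without masking, 4 with the slide row, 5 under the t-test and 4 to 9 with 1 array left out. Genes with a called 5′ minus 3′ difference (2414) were 1521 under the t-test and 1684 to 3006 with 1 array left out. Without control replicate 3 and silenced replicate 4 together, 5340 probes, 2 member probes and 13 other pathway genes were called higher and 6967 probes and 11 pathway genes lower. The cause of these shifts was not tested.

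Signs turned for member probes that were not called in the values as reported, of which Dll1 was called under other alternatives. Jag1 changed by 0.16 with the 75th percentile, 0.25 with cyclic loess, 0.20 without masking, 0.21 with the series table and -0.24 to 0.00422 with 1 array left out. Jag2 changed by 0.0244, 0.0165 and 0.0181 with the 75th percentile, without masking and with the series table. Notch1 changed by 0.0474 with the 75th percentile, 0.0881 without both arrays and -0.56 to -0.10 with 1 array left out. Notch2 changed by -0.00868 with normexp, -0.0501 with spots well above background only and -0.14 to 0.28 with 1 array left out. Dll1 changed by -0.0140 with normexp, and the 5′ probe of Rbpj by 0.17 without both arrays and -0.88 to 0.22 with 1 array left out.

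Samples of the same number correlated in their deviations at -0.0189, 0.152, 0.198 and 0.0613, so the numbers were not taken to pair them. With the replicate number as a block, Hes1 changed by 1.05 (limma adjusted p 0.0514), 0 member probes and 1 other pathway gene were called higher, and the other counts stayed within 1.5 times. Heyl and Dll1 could not be fitted with spots well above background only, nor the Pvt1 probe with the series table. Probes near background limit what can be said of Dll1 and Heyl.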
